A study of Arabidopsis thaliana with 18 samples.

Results

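The genes described are 42 Arabidopsis thaliana genes of auxin synthesis, auxin repression and auxin conjugation, chosen by gene identity among the 32833 genes of the count files. They comprise the 29 Aux/IAA repressor genes, 7 GH3 genes of auxin conjugation (GH3.1 to GH3.6 and GH3.17) and 6 auxin synthesis genes (TAA1, YUC3, YUC5, YUC7, YUC8 and YUC9). Poly(A) RNA of whole seedlings, ecotype Col-0, was sequenced from als3-1, sog1-7 and wild type. Each genotype was grown with 1.5 mM AlCl3 or with 0 mM AlCl3, on gel of pH 4.2 in constant light at 20 °C, and was collected 84 h after sowing. Each of the 6 groups has 3 libraries, numbered 2, 3 and 4. The study sought genes that the DNA damage transcription factor SOG1 controls when aluminium stops root growth, by setting als3-1, a mutant of the aluminium tolerance gene ALS3, beside sog1-7, an aluminium-tolerant loss-of-function mutant of SOG1.

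Auxin (indole-3-acetic acid) is made from tryptophan in a pair of steps, by the aminotransferase TAA1 and then by flavin monooxygenases of the YUCCA family. Aux/IAA proteins bind auxin response factors (ARFs) and hold auxin-responsive genes off. Auxin joins a short degron of an Aux/IAA protein to a TIR1/AFB receptor, after which the repressor is degraded. Many Aux/IAA and GH3 genes are themselves switched on by auxin, and GH3 enzymes then conjugate auxin to amino acids, which lowers free auxin. In roots auxin sets the position of the stem cell niche and the rate of cell elongation, and YUCCA genes have been placed in the aluminium response of the root tip.

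Levels are counts per 1e6 counts (CPM) with TMM scaling, and levels between genes are the FPKM values as deposited, which are per gene length. A change is a log2 fold change ± SE from edgeR's quasi-likelihood test over all 18 libraries, with p-values adjusted by Benjamini-Hochberg over the 21650 genes tested, and a gene was called at an adjusted p under 0.05. The shallowest library held 25561124 counts and the deepest 44572947, so that 3 counts stood for 0.0673 to 0.117 CPM. No label says that the samples are separate cultures, so a p-value measures the spread of these samples alone, which may be technical. The transcripts that name the mutants did not check the labels. SOG1 had 15.1 to 17.7 and 16.6 to 19.5 CPM in sog1-7 at 1.5 and 0 mM, against 15.4 to 17.5 and 13.6 to 19.0 CPM in wild type. ALS3 had 5.07 to 7.88 and 2.56 to 3.79 CPM in als3-1, against 3.93 to 7.87 and 3.07 to 3.59 CPM in wild type. Markers of root and of green tissue were present in every library. The summed level of 6 green tissue markers was 14431 to 18412 CPM in als3-1 and 9002 to 11832 CPM in sog1-7 at 1.5 mM, against 13339 to 28680 CPM in wild type. At 0 mM the sum was 8122 to 15942 CPM in als3-1 and 5302 to 8994 CPM in sog1-7, against 22190 to 28268 CPM in wild type, with no overlap. In whole seedlings, fewer cells of a type and less RNA per cell cannot be told apart. Replicate 2 of both sog1-7 groups and of treated als3-1 had 0.0168% to 0.0285% of reads on 4 ribosomal RNA genes, against 0.909% to 5.71% in the other 15 libraries. These 3 are called the low-rRNA libraries. The summed level of 6 seed storage and late seed markers was 1.09 to 56.5 CPM in als3-1 and 6.54 to 65.3 CPM in sog1-7 at 1.5 mM, against 0.664 to 1.61 CPM in wild type, and 0.764 to 5.40 CPM over all libraries at 0 mM. Their part in the results was not tested.

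The degron that gives an Aux/IAA protein its auxin sensitivity has the core residues glycine, tryptophan, proline, proline. The codons of these residues stood next to each other and in frame in the coding sequence of 23 of the 29 Aux/IAA genes and not in the longest coding sequence of IAA20, IAA30, IAA31, IAA32, IAA33 and IAA34. The stretches are shown for members whose levels changed, because the degron is the stretch that the auxin receptor binds. Each is 36 bases of reference coding sequence (RefSeq, TAIR10.1), 5′ to 3′ on the coding strand, with the 12 degron codon bases in capitals.
IAA1: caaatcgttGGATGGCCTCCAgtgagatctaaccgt
IAA3: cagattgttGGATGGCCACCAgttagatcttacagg
IAA7: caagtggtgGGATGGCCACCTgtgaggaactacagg
IAA13: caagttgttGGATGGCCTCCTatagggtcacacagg
IAA16: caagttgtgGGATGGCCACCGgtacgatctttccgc
IAA17: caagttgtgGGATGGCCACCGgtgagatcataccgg
IAA19: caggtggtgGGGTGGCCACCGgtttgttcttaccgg
IAA28: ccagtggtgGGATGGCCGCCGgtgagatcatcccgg
IAA29: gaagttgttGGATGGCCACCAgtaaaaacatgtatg

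IAA19 is 1 of 10 members that were lower in sog1-7 than in wild type at 0 mM. Upstream sequences are shown for it and for the GH3 genes that rose with aluminium. The sequences are shown because the letters TGTCTC and TGTCGG are those of the auxin response element that ARFs bind. Each is the 250 bases before the annotated start, 5′ to 3′ on the gene's strand in TAIR10.1, with TGTCTC in capitals where it occurs. The stretches lie at chr2:6453798-6454047 (GH3.1, minus strand), chr4:17579368-17579617 (GH3.2, plus strand), chr2:9866563-9866812 (GH3.3, minus strand) and chr3:5263751-5264000 (IAA19, plus strand).
GH3.1: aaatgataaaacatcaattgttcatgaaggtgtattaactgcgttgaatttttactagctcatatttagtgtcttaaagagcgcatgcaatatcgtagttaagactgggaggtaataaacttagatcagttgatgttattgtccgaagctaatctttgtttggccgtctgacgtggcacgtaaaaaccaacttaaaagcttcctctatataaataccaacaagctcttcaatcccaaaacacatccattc
GH3.2: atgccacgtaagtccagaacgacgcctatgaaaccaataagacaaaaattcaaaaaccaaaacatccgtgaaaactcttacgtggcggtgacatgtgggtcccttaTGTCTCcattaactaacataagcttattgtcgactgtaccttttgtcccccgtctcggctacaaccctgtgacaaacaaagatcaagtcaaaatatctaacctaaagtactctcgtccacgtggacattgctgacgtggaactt
GH3.3: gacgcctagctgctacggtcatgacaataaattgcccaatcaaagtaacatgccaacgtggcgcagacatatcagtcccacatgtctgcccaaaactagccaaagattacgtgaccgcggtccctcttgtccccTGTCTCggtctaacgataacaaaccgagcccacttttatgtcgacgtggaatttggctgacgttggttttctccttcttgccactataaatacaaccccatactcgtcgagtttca
IAA19: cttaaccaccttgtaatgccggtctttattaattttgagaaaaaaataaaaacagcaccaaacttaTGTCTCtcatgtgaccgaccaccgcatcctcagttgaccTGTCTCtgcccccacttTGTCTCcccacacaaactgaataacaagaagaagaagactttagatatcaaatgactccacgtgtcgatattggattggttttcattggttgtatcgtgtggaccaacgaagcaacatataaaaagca

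Both strands were searched. TGTCTC stood in 12 of 42 members' stretches (28.6%), against 10.9% of 27477 such stretches of all genes. TGTCGG stood in 6 of 42 (14.3%), against 4.16%. The wider form TGTCNN, which includes both, stood in 32 of 42 (76.2%), against 74.5%. GH3.2 had TGTCTC 144 bases and GH3.3 116 bases before the start, IAA19 had it 3 times, at 184, 145 and 128 bases, and GH3.1 had neither TGTCTC nor TGTCGG in these 250 bases. A match describes letters and is no binding site.

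Per gene length, the most abundant repressor genes were IAA9 (mean 134 FPKM over the 18 libraries, 113 to 151), IAA8 (64.9 FPKM, 55.0 to 81.9) and IAA7 (63.0 FPKM, 44.5 to 90.2). IAA9, a repressor expressed in most organs, stood above all other members in every library, and the ranges of IAA8 and IAA7 overlapped. GH3.6 led the conjugation genes (26.9 FPKM, 17.6 to 48.5), with GH3.17 next (23.8 FPKM, 17.2 to 35.3) and an overlapping range. TAA1 had 23.8 FPKM (12.6 to 33.5), above the 5 YUC genes, whose means ran from 0.842 FPKM for YUC9 to 2.60 FPKM for YUC3. At the low end, GH3.4 had 1 read in all 18 libraries, and IAA6 and IAA15 averaged 0.109 and 0.0588 FPKM. These 3 genes did not pass the filter on low counts, so 39 members were tested.

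**Figure D1:**
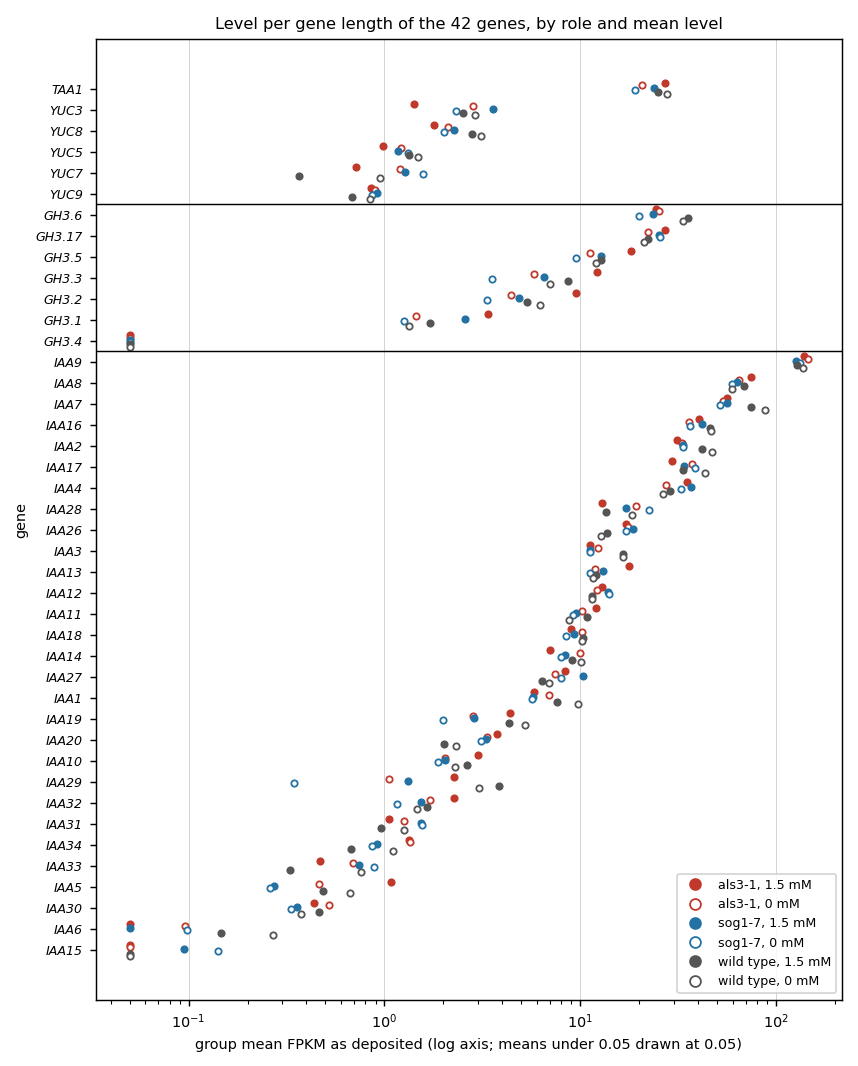
Mean FPKM as deposited in each of the 6 groups (1 point per group of 3 libraries, log axis) for the 6 synthesis, 7 GH3 and 29 Aux/IAA genes, ordered by mean level within each role. IAA9 stands highest with a mean of 134 FPKM, and IAA29 is lowest in sog1-7 at 0 mM.

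Of the 39 tested members 17 were called in at least 1 of 12 comparisons, 10 of them Aux/IAA, 4 GH3 and 3 synthesis genes. With 1.5 mM against 0 mM in als3-1, 3 rose (GH3.1, GH3.2 and IAA13) and 2 fell (YUC3 and IAA17), where 10.8% of all genes tested were called (4.56% higher, 6.29% lower). In sog1-7 no member was called, where 1.19% of all genes were (0.739% higher, 0.448% lower), with 5 members at an unadjusted p under 0.05 and 1 member, GH3.1, called by DESeq2. In wild type 1 fell (YUC7), where 1.88% of all genes were called (0.896% higher, 0.988% lower). Averaged over the 3 genotypes, 5 rose and 5 fell, where 13.6% of all genes were called (6.13% higher, 7.50% lower). The members' shares were 12.8% in als3-1, 2.56% in wild type and 25.6% for the mean response, and the median log2 change over the 39 was 0.00 in als3-1, 0.08 in sog1-7, -0.12 in wild type and 0.00 for the mean response. With the replicate number as a block, 9 members were called in als3-1, where 18.9% of all genes were, 2 in wild type (3.71% of all genes) and 1 in sog1-7 (2.65%). In als3-1 the count was 3 without 1.5 mM replicate 2 or 0 mM replicate 3. In wild type it was 0 without replicate 3 or 4 of either concentration. The mean response had 6 without sog1-7 0 mM replicate 3, wild type 1.5 mM replicate 3 or 4, or wild type 0 mM replicate 3. Left-out counts, here and below, stand without the share of all genes in the same fit. They describe the setting and not the members.

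The response to aluminium differed between genotypes for 2 members. GH3.2 differed between als3-1 and wild type, where 0.402% of all genes were called (0.0323% higher, 0.370% lower). YUC3 differed between als3-1 and sog1-7, where 1.15% were (0.277% higher, 0.873% lower). No member was called for the difference between sog1-7 and wild type by edgeR's quasi-likelihood test or by DESeq2, where 0.00462% of all genes were called by edgeR and 3 members had an unadjusted p under 0.05. The GH3.2 count was 0 without als3-1 1.5 mM replicate 3 or without replicate 2 or 3 of either wild type group. The YUC3 count was 0 without als3-1 1.5 mM replicate 3 or sog1-7 0 mM replicate 2.

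Between genotypes without aluminium, 10 members were lower and none higher in sog1-7 than in wild type (25.6% of the 39), where 10.2% of all genes were called (5.29% higher, 4.92% lower). In als3-1 4 were lower than in wild type (10.3% of the 39), where 2.32% of all genes were called (0.855% higher, 1.46% lower). At 1.5 mM, 2 were higher and 5 lower in als3-1 than in wild type, where 5.58% of all genes were called (2.55% higher, 3.03% lower). In sog1-7 at 1.5 mM, 1 was higher and 4 lower than in wild type, where 7.40% of all genes were called (3.75% higher, 3.65% lower). Between als3-1 and sog1-7 at 1.5 mM, 2 were higher and 1 lower in als3-1, where 6.69% of all genes were called (2.72% higher, 3.97% lower). Comparisons of both mutants with wild type share the wild type libraries. With the replicate block 11 members were called for als3-1 against wild type at 0 mM (7.37% of all genes) and 15 at 1.5 mM (11.6%), 11 for sog1-7 against wild type at 1.5 mM (16.7%) and 6 for als3-1 against sog1-7 (14.5%). At 0 mM the count was 6 for sog1-7 without sog1-7 replicate 3, and 0 to 2 for als3-1 without any 1 of the 6 libraries. At 1.5 mM it was 1 to 3 for als3-1 without any 1 of the 6 libraries, and 2 or 3 for sog1-7 without sog1-7 replicate 3 or 4 or any 1 wild type library. These left-out counts also stand without the shares of all genes in those fits.

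There were 47 calls of a member in a comparison, and DESeq2 called all 47. When each library was left out in turn, 17 kept and 30 ended at least once. When only the groups of a comparison were fitted, 24 of 47 ended, and 13 ended without the low-rRNA libraries. Fitting only the compared groups repeats the main fit for the mean response, which uses all 6 groups. Its 10 calls could not end there. With limma on FPKM, 28 or 29 ended, by pseudocount. The 14 calls that kept in every setting run were those of GH3.2 for als3-1 with aluminium, for als3-1 against sog1-7 at 1.5 mM and for sog1-7 against wild type at 0 mM, of GH3.6, IAA1, IAA7, IAA19 and IAA29 for sog1-7 against wild type at 0 mM, of YUC3 for als3-1 against sog1-7 at 1.5 mM, of YUC7 for sog1-7 against wild type at 1.5 mM, and of GH3.1, GH3.2, IAA17 and YUC7 for the mean response. Those for the mean response were thus not tried by the fit of the compared groups only.

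**Figure D2:**
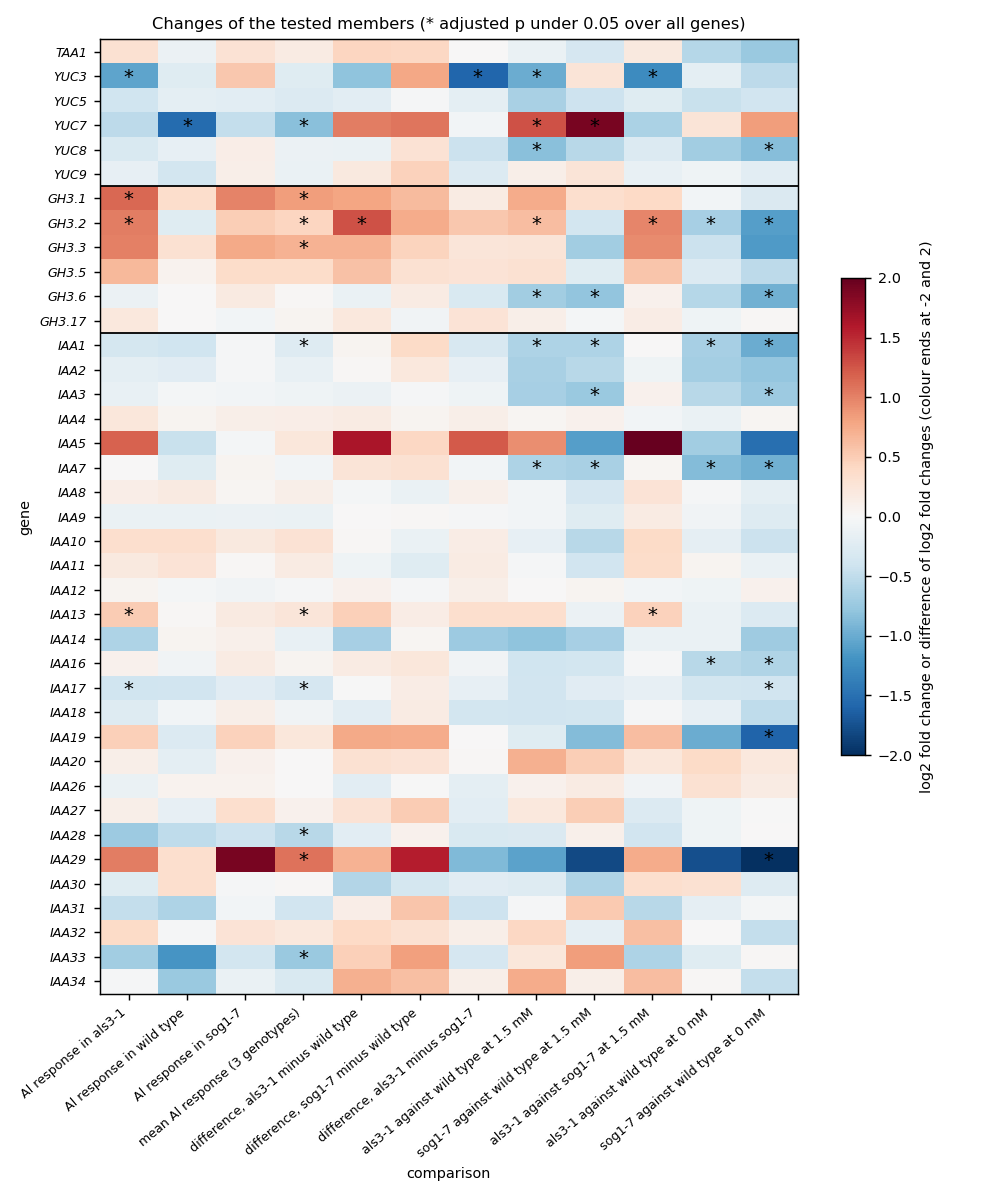
Log2 fold change, or difference of log2 fold changes, of the 39 tested members (rows, grouped as synthesis, GH3 and Aux/IAA) in the 12 comparisons (columns), with an asterisk at an adjusted p under 0.05 over all genes. There are 10 asterisks each for the mean response, 5 of them higher, and for sog1-7 against wild type at 0 mM, all lower.

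Among the auxin synthesis genes, YUC3 (AT1G04610, chromosome 1, 1279351 to 1281618, plus strand), a root-expressed YUCCA monooxygenase, fell with aluminium in als3-1. In als3-1 YUC3 had 2.85, 2.72 and 2.88 CPM at 1.5 mM, against 7.93, 3.93 and 5.62 CPM at 0 mM. All 3 treated als3-1 libraries lay below every other library of the study. In sog1-7 YUC3 had 8, 5.71 and 6.59 CPM at 1.5 mM, against 4.31, 4.42 and 5.28 CPM at 0 mM, and in wild type 5.75, 5.24 and 5.98 CPM, against 7.12, 5.1 and 7.78 CPM. The treated sog1-7 libraries lay above the untreated ones, and the wild type groups overlapped. The fall in als3-1 was -1.05 ± 0.22, adjusted p = 0.00667 (n = 3 against 3, edgeR), a 2.07-fold lower level. This call kept without any 1 of its 6 libraries. It ended when only the compared groups were fitted and with limma on both FPKM scales (adjusted p up to 0.073), and the smallest fall of any setting was -0.63. In sog1-7 the change was 0.54 ± 0.22, adjusted p = 0.432 and in wild type -0.24 ± 0.22, adjusted p = 0.873, neither called. The response in als3-1 minus that in sog1-7 was -1.59 ± 0.31, adjusted p = 0.0177 (95% interval -2.20 to -0.97), a difference that ended without als3-1 1.5 mM replicate 3 or sog1-7 0 mM replicate 2 (adjusted p = 0.0525 to 0.0575) and without the low-rRNA libraries (adjusted p = 0.201). The response in als3-1 minus that in wild type was -0.81 ± 0.31, adjusted p = 0.474, not called.

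At 1.5 mM YUC3 was lower in als3-1 than in sog1-7 (-1.26 ± 0.22, adjusted p = 0.00301) and lower than in wild type (-1.0 ± 0.22, adjusted p = 0.0155). The call against wild type ended without als3-1 1.5 mM replicate 2 or 3 or wild type 1.5 mM replicate 2 (adjusted p = 0.0503 to 0.0598). Root markers moved in the same libraries: 5 of 6 fell with aluminium in als3-1, among them the arabinogalactan protein gene AGP30 with 3.93 ± 0.377 CPM at 1.5 mM, against 61.1 ± 20.9 CPM at 0 mM (SD, n = 3 each). AGP30 also fell in sog1-7, to 36.0 CPM against 92.9 CPM (-1.37 ± 0.24, adjusted p = 0.00753), and in wild type, to 35.9 CPM against 90.1 CPM (-1.33 ± 0.24, adjusted p = 0.00826). Its response was more negative in als3-1 than in sog1-7 (-2.59 ± 0.35, adjusted p = 0.00118) and than in wild type (-2.63 ± 0.35, adjusted p = 0.0035). At 1.5 mM the same 5 were lower in als3-1 than in sog1-7 and than in wild type. The sum of the 6 was 5523 to 9076 CPM at 1.5 mM and 6264 to 8367 CPM at 0 mM in als3-1, 5570 to 7901 CPM and 6246 to 8653 CPM in sog1-7, and 4753 to 5698 CPM and 4878 to 7377 CPM in wild type. Most of this sum is PYK10, the marker that was called in no comparison. In untreated als3-1 the other 5 markers averaged 6.25 to 301 CPM, against a mean sum of 7278 CPM, so the sum says little about them. The part of root cell content in the YUC3 result was not tested.

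YUC7 (AT2G33230, chromosome 2, 14080319 to 14081971, minus strand), another YUCCA monooxygenase, fell with aluminium in wild type. It had 0.249, 0.561 and 0.56 CPM at 1.5 mM in wild type, against 0.835, 1.21 and 1.86 CPM at 0 mM, with no overlap. In als3-1 YUC7 had 1.22, 0.951 and 1.09 CPM at 1.5 mM, against 1.35, 1.63 and 1.7 CPM at 0 mM. In sog1-7 YUC7 had 2.22, 1.45 and 1.38 CPM at 1.5 mM, against 2.69, 2.22 and 2.08 CPM at 0 mM. The treated wild type libraries were the lowest of the study, and the sog1-7 groups overlapped while the als3-1 groups did not. The fall in wild type was -1.54 ± 0.35, adjusted p = 0.0303 (edgeR), and that call ended when any 1 of its 6 libraries was left out other than wild type 0 mM replicate 2 (adjusted p = 0.0523 to 0.16). The changes in als3-1 (-0.52 ± 0.31, adjusted p = 0.33) and in sog1-7 (-0.47 ± 0.30, adjusted p = 0.835) were not called, and neither was the difference of the als3-1 response (1.02 ± 0.46, adjusted p = 0.592) or of the sog1-7 response (1.07 ± 0.46, adjusted p = 1) from that of wild type. The mean response was -0.84 ± 0.18, adjusted p = 0.00571, and this call kept without any 1 of the 18 libraries.

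With aluminium YUC7 was higher in sog1-7 than in wild type (1.90 ± 0.34, adjusted p = 0.00467) and higher in als3-1 than in wild type (1.27 ± 0.34, adjusted p = 0.04). The treated wild type libraries held only 9, 15 and 16 reads of YUC7. The sog1-7 value ran from 0.71 to 2.09 over the settings. The als3-1 call ended when any 1 of its 6 libraries was left out (adjusted p = 0.0566 to 0.179). YUC7 shares 425 bases with AT2G33220 on the other strand, which averaged 79.2 CPM, and the strand setting of the counting is not given in the sources used here, so reads of the pair cannot be told apart. AT2G33220 itself was not called for the response in wild type (log2 change -0.30, adjusted p = 0.922) or for sog1-7 against wild type at 1.5 mM (0.51, adjusted p = 0.433).

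YUC8 (AT4G28720, chromosome 4, 14192569 to 14194302, plus strand), a YUCCA gene known from shoots at high temperature and from roots, was lower in sog1-7 at 0 mM and in als3-1 at 1.5 mM. At 0 mM YUC8 had 4.07, 3.82 and 3.26 CPM in sog1-7 and 3.58, 4.66 and 4.18 CPM in als3-1, against 6.56, 8.46 and 5.14 CPM in wild type. At 1.5 mM YUC8 had 4.51, 3.98 and 3.71 CPM in sog1-7 and 3, 3.23 and 3.89 CPM in als3-1, against 4.37, 7.44 and 6.26 CPM in wild type. All mutant libraries lay below all wild type libraries at 0 mM, and at 1.5 mM wild type replicate 2 lay within the sog1-7 range. YUC8 was lower in sog1-7 at 0 mM (-0.85 ± 0.21, adjusted p = 0.0191), a call that ended without sog1-7 0 mM replicate 3 or 4 or wild type 0 mM replicate 3 (adjusted p = 0.0547 to 0.103). It was lower in als3-1 at 1.5 mM (-0.84 ± 0.21, adjusted p = 0.0304), a call that ended when any 1 of its 6 libraries was left out other than als3-1 1.5 mM replicate 4 and wild type 1.5 mM replicate 2 (adjusted p = 0.081 to 0.127). The other 2 comparisons with wild type gave -0.70 ± 0.21, adjusted p = 0.1 for als3-1 at 0 mM and -0.56 ± 0.21, adjusted p = 0.117 for sog1-7 at 1.5 mM, not called, the first of them called with the block (adjusted p = 0.0498) and with DESeq2 (adjusted p = 0.0442).

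TAA1 (AT1G70560, chromosome 1, 26604855 to 26607652, plus strand), the aminotransferase of the first step, was called in no comparison. It had 40.4, 56.4 and 42.6 CPM in als3-1 at 1.5 mM, against 36.7, 41.8 and 34.1 CPM at 0 mM. It had 35.4, 44.7 and 42.1 CPM in sog1-7 at 1.5 mM, against 31.9, 32.9 and 34.9 CPM at 0 mM. Wild type had 22.7, 69.3 and 61.5 CPM at 1.5 mM, against 67.9, 58.8 and 40.2 CPM at 0 mM. Replicate 2 of treated wild type was the lowest of all 18 libraries, far below the other 2 of its group, and the same library had the lowest green tissue sum of its group (13339 CPM, against 25126 and 28680 CPM). The aluminium response of TAA1 had a 95% interval of -0.27 to 0.88 for als3-1, and for wild type it was -0.69 to 0.45. YUC5 and YUC9, also YUCCA genes, lay between 1.70 and 4.60 CPM and between 0.880 and 2.18 CPM over the 18 libraries and were called nowhere.

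**Figure D3:**
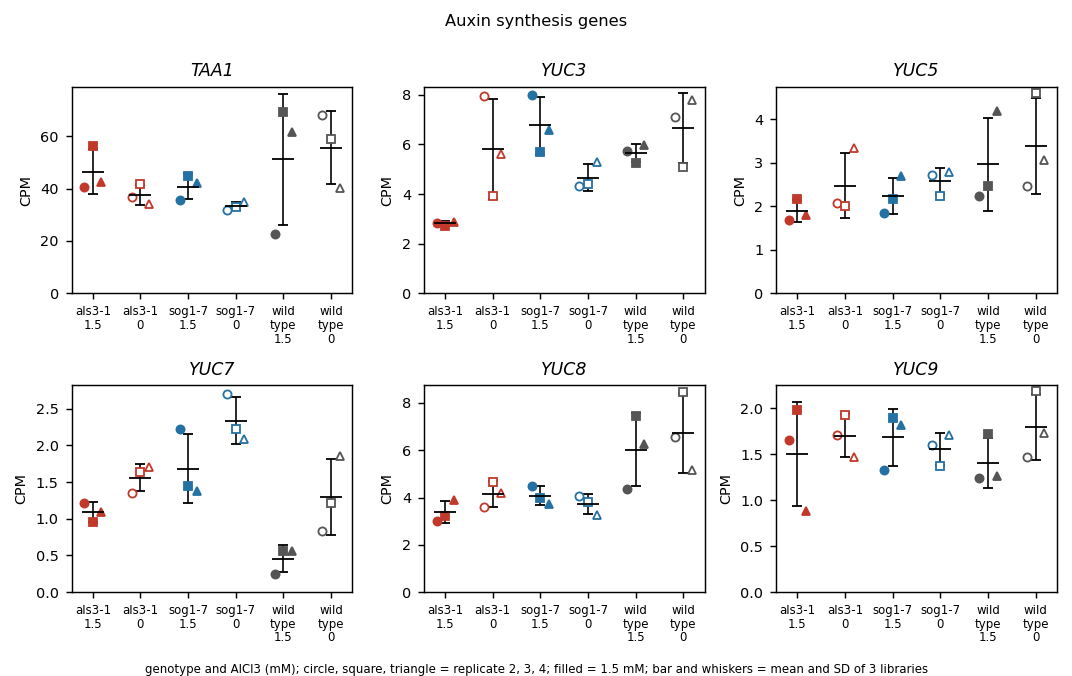
CPM of the 6 synthesis genes in each of the 18 libraries (points), with the mean and SD of each group of 3 (bars), by genotype and AlCl3 concentration. YUC3 is lowest in als3-1 at 1.5 mM (2.72 to 2.88 CPM), and YUC7 is lowest in wild type at 1.5 mM (0.249 to 0.561 CPM).

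GH3 enzymes of this group join auxin to amino acids, and GH3.1, GH3.2 and GH3.3 rose with aluminium in als3-1 or for the mean response. In als3-1 2 of the 6 tested GH3 genes rose and none fell, where 4.56% of all genes were called higher (median log2 change 0.82, against 0.02 over all genes). For the mean response 3 of 6 rose, where 6.13% of all genes were called higher (median 0.39, against 0.00). In sog1-7 no GH3 gene was called, with 3 of 6 at an unadjusted p under 0.05 and a median of 0.43. In wild type none was called, none had an unadjusted p under 0.05, and the median was 0.04.

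GH3.2 (AT4G37390, chromosome 4, 17579618 to 17582022, plus strand) had 21.4, 24.6 and 20.1 CPM in als3-1 at 1.5 mM, against 13.3, 11.2 and 7.98 CPM at 0 mM. In sog1-7 GH3.2 had 10.6, 11.5 and 11.4 CPM at 1.5 mM, against 7.26, 8.29 and 8.3 CPM at 0 mM. In wild type GH3.2 had 12.5, 15.2 and 15.5 CPM at 1.5 mM, against 18.1, 18.1 and 15 CPM at 0 mM. The treated als3-1 libraries were the highest of the study, the groups of each mutant did not overlap, and those of wild type did. GH3.2 rose in als3-1 by 1.03 ± 0.16, adjusted p = 0.000628 (edgeR, n = 3 against 3), a 2.04-fold higher level. The changes in sog1-7 (0.49 ± 0.16, adjusted p = 0.228) and wild type (-0.24 ± 0.16, adjusted p = 0.72) were not called. The mean response of GH3.2 was 0.43, adjusted p = 0.00517 (edgeR). It averages changes of unlike sign and is no rise shared by the 3 genotypes. The response in als3-1 minus that in wild type was 1.27 ± 0.22, adjusted p = 0.0182 (95% interval 0.83 to 1.71). This difference ended without als3-1 1.5 mM replicate 3, wild type 1.5 mM replicate 2 or 3 or wild type 0 mM replicate 2 or 3 (adjusted p = 0.0561 to 0.0674) and without the low-rRNA libraries (adjusted p = 0.0528). The response in als3-1 minus that in sog1-7 was 0.54 ± 0.23, adjusted p = 0.482, not called.

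At 0 mM GH3.2 lay below wild type in both mutants. It was lower in sog1-7 (-1.10 ± 0.16, adjusted p = 0.000804) and in als3-1 (-0.66 ± 0.16, adjusted p = 0.0429). The als3-1 call ended when any 1 of its 6 libraries was left out other than als3-1 0 mM replicate 2 (adjusted p = 0.0642 to 0.163). At 1.5 mM als3-1 had more GH3.2 than sog1-7 (0.98 ± 0.16, adjusted p = 0.00166) and more than wild type (0.61 ± 0.16, adjusted p = 0.0321). The call against wild type ended when any 1 of its 6 libraries was left out other than als3-1 1.5 mM replicate 4 (adjusted p = 0.0563 to 0.145), and without the low-rRNA libraries its adjusted p was 0.0624.

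GH3.1 (AT2G14960, chromosome 2, 6451319 to 6453797, minus strand) had 8.73, 7.09 and 8.8 CPM in als3-1 at 1.5 mM, against 2.94, 3.79 and 4.37 CPM at 0 mM. In sog1-7 GH3.1 had 4.92, 7.1 and 6.61 CPM at 1.5 mM, against 2.24, 3.92 and 3.23 CPM at 0 mM. In wild type GH3.1 had 3.18, 5.24 and 6.33 CPM at 1.5 mM, against 3.1, 5.07 and 3.32 CPM at 0 mM. The groups of als3-1 and of sog1-7 did not overlap, and those of wild type did. GH3.1 rose in als3-1 by 1.15 ± 0.27, adjusted p = 0.0128 (edgeR), a call that ended without als3-1 0 mM replicate 2 (adjusted p = 0.0636). The sog1-7 change was 0.99 ± 0.27, adjusted p = 0.115, not called by edgeR and called by DESeq2 (adjusted p = 0.0276) and with the block (adjusted p = 0.0206). With the block GH3.1 was also higher in als3-1 than in wild type at 1.5 mM (0.80, adjusted p = 0.0231). The wild type change was 0.35 ± 0.28, adjusted p = 0.808. Over the 3 genotypes GH3.1 rose by 0.83 ± 0.16, adjusted p = 0.00207, and no difference of its response between genotypes was called (als3-1 minus wild type 0.79 ± 0.39, adjusted p = 0.626).

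GH3.3 (AT2G23170, chromosome 2, 9863855 to 9866562, minus strand) had 26.5, 27.9 and 29.7 CPM in als3-1 at 1.5 mM, against 11.9, 15.4 and 14.8 CPM at 0 mM. In sog1-7 GH3.3 had 14.3, 13 and 16.3 CPM at 1.5 mM, against 5.32, 6.71 and 13.9 CPM at 0 mM. In wild type GH3.3 had 10.6, 29.5 and 30.3 CPM at 1.5 mM, against 22.3, 16 and 18.4 CPM at 0 mM. Replicate 2 of treated wild type was again low beside the other 2 of its group, and the wild type groups overlapped, as did those of sog1-7. The mean response was 0.69 ± 0.20, adjusted p = 0.0306, a call that ended without als3-1 1.5 mM replicate 3, als3-1 0 mM replicate 2, sog1-7 1.5 mM replicate 4, sog1-7 0 mM replicate 2 or 3, wild type 1.5 mM replicate 3 or 4 or wild type 0 mM replicate 3 or 4 (adjusted p = 0.0504 to 0.0738) and without the low-rRNA libraries (adjusted p = 0.0921). In als3-1 alone the change was 1.00 ± 0.34, adjusted p = 0.0797, without overlap of the groups, and it passed with DESeq2 (adjusted p = 0.0337) and with the block (adjusted p = 0.0349).

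GH3.6 (AT5G54510, chromosome 5, 22130964 to 22133688, minus strand), also named DFL1, was lower in both mutants. At 0 mM GH3.6 had 46.6, 53.8 and 52.5 CPM in sog1-7 and 71.1, 72.8 and 56.3 CPM in als3-1, against 99.4, 106 and 92.7 CPM in wild type. At 1.5 mM GH3.6 had 53.3, 63.9 and 56.2 CPM in sog1-7 and 52.8, 76 and 55.4 CPM in als3-1, against 124, 92.7 and 82.9 CPM in wild type. No mutant library reached the lowest wild type library at either concentration. GH3.6 was lower in sog1-7 at 0 mM (-0.96 ± 0.16, adjusted p = 0.00206) and at 1.5 mM (-0.79 ± 0.16, adjusted p = 0.0102), and lower in als3-1 at 1.5 mM (-0.70 ± 0.16, adjusted p = 0.0194). The call of sog1-7 at 1.5 mM ended without wild type 1.5 mM replicate 2 (adjusted p = 0.0505). The als3-1 call ended without als3-1 1.5 mM replicate 2 or 4 or wild type 1.5 mM replicate 2 (adjusted p = 0.0754 to 0.103), and without the low-rRNA libraries its adjusted p was 0.0804. For als3-1 at 0 mM the change was -0.57 ± 0.16, adjusted p = 0.0797, not called by edgeR without a block and called with the block (adjusted p = 0.0274) and with DESeq2 (adjusted p = 0.0283). Aluminium responses of GH3.6 ran from -0.12 in als3-1 to 0.18 in sog1-7, none called.

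GH3.5 (AT4G27260, chromosome 4, 13653579 to 13656285, plus strand), which conjugates auxin and salicylic acid, stood just outside the threshold in als3-1 (0.65 ± 0.20, adjusted p = 0.0526), with 40.6, 49.1 and 49.9 CPM at 1.5 mM against 25.3, 24.8 and 39 CPM at 0 mM and no overlap. It passed with DESeq2 (adjusted p = 0.0228), with the block (adjusted p = 0.000318) and without als3-1 0 mM replicate 4 (adjusted p = 0.0164). With the block GH3.5 was also higher in als3-1 at 1.5 mM than in sog1-7 (0.56, adjusted p = 0.00179) and than in wild type (0.32, adjusted p = 0.0407). Its mean response was called with the block (0.37, adjusted p = 0.000266) and with DESeq2 (0.36, adjusted p = 0.0271). By edgeR over all libraries without a block that response was not called. GH3.17 (AT1G28130, chromosome 1, 9825169 to 9828118, plus strand), which acts on auxin with glutamate, lay between 51.1 and 78.4 CPM in the 18 libraries and was called nowhere. GH3.4 was not tested.

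**Figure D4:**
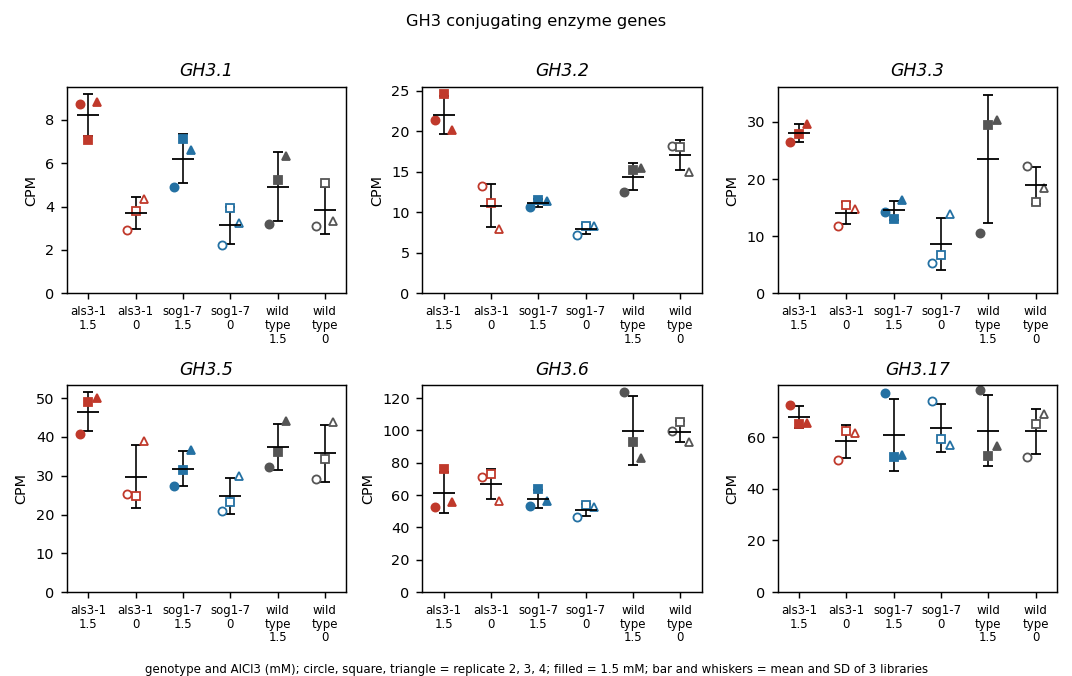
CPM of the 6 tested GH3 genes in each of the 18 libraries (points), with the mean and SD of each group of 3 (bars), by genotype and AlCl3 concentration. The means of GH3.1 and GH3.2 are highest in als3-1 at 1.5 mM, and GH3.6 is higher in wild type than in als3-1 and sog1-7 at both concentrations.

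Among the auxin repressors, of the 27 tested Aux/IAA genes 1 rose (IAA13) and 1 fell (IAA17) with aluminium in als3-1, none was called in sog1-7 (1 at an unadjusted p under 0.05) or in wild type (3 at an unadjusted p under 0.05), and 2 rose and 4 fell for the mean response. These were 7.41% of the 27 in als3-1, against 10.8% of all genes, and 22.2% for the mean response, against 13.6%. The median log2 change was 0.00 in als3-1, 0.04 in sog1-7 and -0.07 in wild type.

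IAA13 (AT2G33310, chromosome 2, 14113025 to 14116089, minus strand), close to the embryonic root repressor IAA12, had 29, 24.1 and 27.8 CPM in als3-1 at 1.5 mM, against 19.4, 17.8 and 19.6 CPM at 0 mM. In sog1-7 IAA13 had 21, 17.8 and 20.2 CPM at 1.5 mM, against 19.4, 15.8 and 16.8 CPM at 0 mM. In wild type IAA13 had 20, 21.7 and 22.3 CPM at 1.5 mM, against 20, 18.7 and 24.1 CPM at 0 mM. The als3-1 groups did not overlap, and those of sog1-7 and of wild type did. IAA13 rose in als3-1 by 0.51 ± 0.12, adjusted p = 0.0117 (edgeR), a call that ended without als3-1 1.5 mM replicate 2 or als3-1 0 mM replicate 3 (adjusted p = 0.0537 to 0.0539). At 1.5 mM als3-1 had more IAA13 than sog1-7 (0.46 ± 0.12, adjusted p = 0.0319), a call that ended when any 1 of its 6 libraries was left out other than als3-1 1.5 mM replicate 3 and sog1-7 1.5 mM replicate 2 (adjusted p = 0.0688 to 0.133). The mean response was 0.24 ± 0.07, adjusted p = 0.0294, which ended without als3-1 1.5 mM replicate 2, als3-1 0 mM replicate 3, sog1-7 1.5 mM replicate 2 or 4, sog1-7 0 mM replicate 3 or 4, wild type 1.5 mM replicate 3 or 4 or wild type 0 mM replicate 2 or 3 (adjusted p = 0.054 to 0.0725). With the block IAA13 was also higher in als3-1 than in wild type at 1.5 mM (0.33, adjusted p = 0.0385). IAA13 shares 1176 bases with AT2G33300 on the other strand, which averaged 0.00606 CPM.

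IAA17 (AT1G04250, chromosome 1, 1136078 to 1138663, plus strand), the AXR3 repressor of root growth and root hairs, had 39.7, 42.4 and 45.2 CPM in als3-1 at 1.5 mM, against 47, 60.6 and 60 CPM at 0 mM. In sog1-7 IAA17 had 48.6, 43.7 and 49.9 CPM at 1.5 mM, against 55.1, 53 and 58.7 CPM at 0 mM. In wild type IAA17 had 47.1, 58.4 and 60.9 CPM at 1.5 mM, against 73, 74.7 and 69.4 CPM at 0 mM. In each genotype the treated libraries lay below the untreated ones. The mean response was -0.34 ± 0.07, adjusted p = 0.00297 (edgeR), which kept without any 1 of the 18 libraries. The fall in als3-1 alone was -0.40 ± 0.12, adjusted p = 0.0396, which ended when any 1 of its 6 libraries was left out other than als3-1 1.5 mM replicate 4 and als3-1 0 mM replicate 2 (adjusted p = 0.109 to 0.145). IAA17 was also lower in sog1-7 than in wild type at 0 mM (-0.38 ± 0.12, adjusted p = 0.05 after rounding), a call that ended when any 1 of its 6 libraries was left out (adjusted p = 0.0721 to 0.151). With the block it was called for aluminium in wild type (-0.39, adjusted p = 0.0478) and in als3-1 against wild type at 0 mM (-0.38, adjusted p = 0.0365) and at 1.5 mM (-0.38, adjusted p = 0.0257). IAA17 lies 6388 bases from IAA3 on chromosome 1.

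IAA28 (AT5G25890, chromosome 5, 9033204 to 9035140, plus strand), a repressor of lateral root formation, had 25.4, 16.9 and 16.6 CPM in als3-1 at 1.5 mM, against 38.4, 30.2 and 28.4 CPM at 0 mM. In sog1-7 IAA28 had 33.5, 21.9 and 21.4 CPM at 1.5 mM, against 48, 28.7 and 26.2 CPM at 0 mM. In wild type IAA28 had 31, 23.4 and 17.4 CPM at 1.5 mM, against 31, 34.5 and 37 CPM at 0 mM. The als3-1 groups did not overlap and those of sog1-7 did, and replicate 2 was the highest of its group in als3-1 and in sog1-7 at both concentrations. IAA28 fell for the mean response (-0.55 ± 0.15, adjusted p = 0.0225, edgeR), and its changes in single genotypes were -0.72 in als3-1, -0.42 in sog1-7 and -0.51 in wild type, none called by edgeR over all libraries without a block. The fall in als3-1 was called without the low-rRNA libraries (-0.95, adjusted p = 0.0115) and with the block (-0.74, adjusted p = 0.00736). On log2 FPKM values the mean response was -0.47 and -0.50 with pseudocounts of 1 and 0.1, no longer called.

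IAA33 (AT5G57420, chromosome 5, 23269914 to 23271092, plus strand), without the degron codons, had 0.434, 0.326 and 0.395 CPM in als3-1 at 1.5 mM, against 0.588, 0.765 and 0.543 CPM at 0 mM. In sog1-7 IAA33 had 0.727, 0.362 and 0.677 CPM at 1.5 mM, against 0.647, 0.878 and 0.773 CPM at 0 mM. In wild type IAA33 had 0.304, 0.299 and 0.385 CPM at 1.5 mM, against 0.556, 0.94 and 0.744 CPM at 0 mM. The als3-1 and wild type groups did not overlap, and those of sog1-7 did. The mean response was -0.75 ± 0.18, adjusted p = 0.0106 (edgeR), with -1.18 in wild type, -0.70 in als3-1 and -0.36 in sog1-7, none called. It kept without any 1 of the 18 libraries and ended on log2(FPKM + 1), where the value was -0.24.

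IAA5 (AT1G15580, chromosome 1, 5365512 to 5366497, minus strand) showed the largest log2 change of an Aux/IAA gene in als3-1, 1.18 ± 0.61, adjusted p = 0.248, without a call. It had 0.425 to 1.58 CPM at 1.5 mM and 0.213 to 0.529 CPM at 0 mM in als3-1, and the groups overlapped. IAA12, the BODENLOS repressor, lay between 16.8 and 24.6 CPM in the 18 libraries and was called nowhere.

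Between mutants and wild type at 0 mM, 7 of the 27 tested Aux/IAA genes were lower in sog1-7 than in wild type and none higher, where 4.92% of all genes were called lower, with a median log2 change of -0.38 against -0.01 over all genes. In als3-1 3 were lower and none higher, where 1.46% of all genes were called lower, with a median of -0.14. With aluminium 3 were lower in sog1-7 and 2 in als3-1. All 6 green tissue markers were called lower in sog1-7 than in wild type at 0 mM and 2 of 6 in als3-1, and in sog1-7 at 1.5 mM 2 of 6 were. The part of green tissue in the lower levels was not tested.

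IAA29 (AT4G32280, chromosome 4, 15583332 to 15584903, plus strand), a target of light and shade signalling, had 0.604, 0.362 and 0.403 CPM in sog1-7 and 2.59, 1.3 and 0.425 CPM in als3-1 at 0 mM, against 7.79, 3.16 and 3.59 CPM in wild type. At 1.5 mM IAA29 had 3.22, 1.11 and 0.841 CPM in sog1-7 and 4.24, 2.12 and 2.31 CPM in als3-1, against 4.42, 5.61 and 8.29 CPM in wild type. The untreated sog1-7 libraries were, with 1 of als3-1, the lowest of the study, and no mutant library reached the wild type range of its concentration. IAA29 was lower in sog1-7 at 0 mM (log2 change -3.38 ± 0.65, adjusted p = 0.00443, edgeR), the largest log2 change in any of the 12 comparisons among the members. In als3-1 at 0 mM the change was -1.76 ± 0.59, adjusted p = 0.139, and in sog1-7 at 1.5 mM it was -1.81 ± 0.58, adjusted p = 0.0683, neither called by edgeR and both called with DESeq2 (adjusted p = 0.0445 and 0.0177) and with the block (adjusted p = 0.0276 and 0.00648). For the mean response IAA29 rose by 1.09 ± 0.34, adjusted p = 0.0462, a call that ended without als3-1 1.5 mM replicate 2 or 3, als3-1 0 mM replicate 3 or 4, sog1-7 1.5 mM replicate 2, sog1-7 0 mM replicate 2, 3 or 4, wild type 1.5 mM replicate 3 or 4 or wild type 0 mM replicate 3 or 4 (adjusted p = 0.0503 to 0.116) and without the low-rRNA libraries (adjusted p = 0.185).

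IAA19 (AT3G15540, chromosome 3, 5264001 to 5265695, plus strand), the MSG2 repressor of hypocotyl bending, had 2.5, 2.01 and 2.15 CPM in sog1-7 and 2.62, 3.79 and 3.73 CPM in als3-1 at 0 mM, against 8.94, 5.77 and 5.55 CPM in wild type. At 1.5 mM IAA19 had 3.76, 2.67 and 2.73 CPM in sog1-7 and 5.64, 4.07 and 4.34 CPM in als3-1, against 3.54, 5.46 and 7.73 CPM in wild type. At 0 mM both mutants lay below wild type without overlap, and at 1.5 mM the ranges overlapped. IAA19 was 3.03-fold lower in sog1-7 at 0 mM (log2 change -1.60 ± 0.28, adjusted p = 0.00239, edgeR), and in als3-1 the change was -1.0 ± 0.27, adjusted p = 0.0683, not called. With the block IAA19 was called lower in als3-1 at 0 mM (adjusted p = 0.0476) and in sog1-7 at 1.5 mM (adjusted p = 0.0463), and DESeq2 called both (adjusted p = 0.016 and 0.0288).

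IAA7 (AT3G23050, chromosome 3, 8194606 to 8197161, plus strand), the AXR2 repressor, had 69.1, 80.2 and 83.6 CPM in sog1-7 and 66.4, 97.8 and 84.2 CPM in als3-1 at 0 mM, against 145, 154 and 155 CPM in wild type. At 1.5 mM IAA7 had 82.7, 78.1 and 81.1 CPM in sog1-7 and 69.8, 94.4 and 84.9 CPM in als3-1, against 92.9, 141 and 147 CPM in wild type. Wild type replicate 2 at 1.5 mM lay within the als3-1 range, and the other wild type libraries lay above all mutant libraries. IAA7 was lower in sog1-7 and als3-1 at 0 mM (-0.96 ± 0.17, adjusted p = 0.00269 and -0.87 ± 0.17, adjusted p = 0.0161, edgeR). At 1.5 mM it was lower in sog1-7 (-0.65 ± 0.17, adjusted p = 0.0312) and in als3-1 (-0.61 ± 0.17, adjusted p = 0.0473). The als3-1 call at 0 mM ended when any 1 of its 6 libraries was left out other than als3-1 0 mM replicate 3 and wild type 0 mM replicate 2 (adjusted p = 0.0561 to 0.0663). The sog1-7 call at 1.5 mM ended when any 1 of its 6 libraries was left out other than wild type 1.5 mM replicate 2 (adjusted p = 0.0558 to 0.111). That of als3-1 at 1.5 mM ended when any 1 of its 6 libraries was left out other than wild type 1.5 mM replicate 2 (adjusted p = 0.0596 to 0.18), with RLE scaling and without the filter on low counts, and without the low-rRNA libraries (adjusted p = 0.153). IAA2, 12510 bases from IAA7 on chromosome 3, was not called by edgeR without a block (sog1-7 against wild type at 0 mM -0.77 ± 0.27, adjusted p = 0.0892) and was with DESeq2 (adjusted p = 0.0455). Without the low-rRNA libraries IAA2 was lower than in wild type in sog1-7 at 0 mM (-1.08, adjusted p = 0.00289) and at 1.5 mM (adjusted p = 0.0133), and in als3-1 at 0 mM (adjusted p = 0.0281) and at 1.5 mM (adjusted p = 0.00975). With the block it was lower in als3-1 at 0 and 1.5 mM (adjusted p = 0.0164 and 0.0131) and in sog1-7 at 1.5 mM (adjusted p = 0.0207).

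IAA1 (AT4G14560, chromosome 4, 8360996 to 8362033, plus strand), an auxin-induced repressor, had 5.88, 6.09 and 6.15 CPM in sog1-7 and 8.29, 6.86 and 7.54 CPM in als3-1 at 0 mM, against 13.5, 11.1 and 11.3 CPM in wild type. At 1.5 mM IAA1 had 5.94, 5.57 and 6.28 CPM in sog1-7 and 6.27, 5.7 and 5.86 CPM in als3-1, against 11.2, 7.85 and 8.01 CPM in wild type. Wild type lay above both mutants without overlap at both concentrations. IAA1 was lower in sog1-7 and als3-1 at 0 mM (-0.99 ± 0.14, adjusted p = 0.000733 and -0.66 ± 0.14, adjusted p = 0.0247, edgeR) and at 1.5 mM (-0.61 ± 0.14, adjusted p = 0.0186 and -0.61 ± 0.14, adjusted p = 0.0204). The als3-1 call at 0 mM ended when any 1 of its 6 libraries was left out other than als3-1 0 mM replicate 2 (adjusted p = 0.0599 to 0.102). At 1.5 mM the sog1-7 call ended without sog1-7 1.5 mM replicate 3 or 4 or wild type 1.5 mM replicate 2 (adjusted p = 0.0511 to 0.0933). The als3-1 call at 1.5 mM ended without als3-1 1.5 mM replicate 3 or 4 or wild type 1.5 mM replicate 2 (adjusted p = 0.0595 to 0.108). Its mean response to aluminium was -0.26 ± 0.08, adjusted p = 0.0472, which ended when any 1 of its 18 libraries was left out other than als3-1 0 mM replicate 3 and wild type 1.5 mM replicate 2 (adjusted p = 0.0522 to 0.0964) and without the low-rRNA libraries (adjusted p = 0.0757).

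IAA16 (AT3G04730, chromosome 3, 1288155 to 1290891, minus strand), a repressor close to IAA7 and IAA17, had 93.5, 76.5 and 79.6 CPM in sog1-7 and 87.9, 85 and 85 CPM in als3-1 at 0 mM, against 129.9, 108 and 141 CPM in wild type. At 1.5 mM IAA16 had 113, 79.5 and 86.7 CPM in sog1-7 and 103, 83.1 and 87.5 CPM in als3-1, against 118, 119 and 123 CPM in wild type. No mutant library reached the wild type range of its concentration. IAA16 was lower at 0 mM in sog1-7 (-0.60 ± 0.14, adjusted p = 0.0117) and in als3-1 (-0.55 ± 0.14, adjusted p = 0.0469), by edgeR. The sog1-7 call ended without sog1-7 0 mM replicate 3 (adjusted p = 0.0558). The als3-1 call ended when any 1 of its 6 libraries was left out (adjusted p = 0.0536 to 0.167). At 1.5 mM IAA16 was called lower with the block in als3-1 (-0.40, adjusted p = 0.0245) and in sog1-7 (-0.38, adjusted p = 0.0248).

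IAA3 (AT1G04240, chromosome 1, 1128149 to 1129689, minus strand), the SHY2 repressor of the root meristem, had 13.8, 10.7 and 12.6 CPM in sog1-7 and 14.7, 12.9 and 14.1 CPM in als3-1 at 0 mM, against 20.2, 18.1 and 23.1 CPM in wild type. At 1.5 mM IAA3 had 14.9, 9.61 and 11 CPM in sog1-7 and 15.5, 8.55 and 13.5 CPM in als3-1, against 24.6, 18.1 and 17 CPM in wild type. The mutant libraries lay below wild type at both concentrations. IAA3 was lower in sog1-7 at 0 mM (-0.72 ± 0.21, adjusted p = 0.0411, edgeR), a call that ended when any 1 of its 6 libraries was left out (adjusted p = 0.0564 to 0.143). It was lower in sog1-7 at 1.5 mM (-0.75 ± 0.21, adjusted p = 0.0431), a call that ended when any 1 of its 6 libraries was left out other than sog1-7 1.5 mM replicate 2 (adjusted p = 0.0541 to 0.184). With the block IAA3 was called lower in als3-1 at 0 mM (-0.56, adjusted p = 0.0318) and at 1.5 mM (-0.69, adjusted p = 0.00786). IAA3 shares 640 bases with AT1G04230 on the other strand (mean 9.48 CPM), whose change for sog1-7 against wild type was 0.13 at 0 mM and 0.05 at 1.5 mM.

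The other tested repressor genes (IAA2, IAA4, IAA5, IAA8 to IAA12, IAA14, IAA18, IAA20, IAA26, IAA27, IAA30 to IAA32 and IAA34) were called in no comparison by edgeR without a replicate block, with mean levels from 0.415 FPKM for IAA30 to 134 FPKM for IAA9. Other fits called 7 of these genes. With the block, IAA14 was lower in als3-1 with aluminium (-0.59, adjusted p = 0.0139), lower than wild type in als3-1 at 1.5 mM (-0.81, adjusted p = 0.00363) and lower in sog1-7 at 1.5 mM (-0.65, adjusted p = 0.00966). IAA14 is the SLR repressor of lateral root formation, and DESeq2 also called it in als3-1 at 1.5 mM (adjusted p = 0.0272) and in sog1-7 at 0 mM (adjusted p = 0.0434). IAA27 was higher in sog1-7 than in wild type at 1.5 mM with the block (0.47, adjusted p = 0.0117), without the low-rRNA libraries (0.68, adjusted p = 0.0161) and on both FPKM scales (adjusted p = 0.0169 and 0.0171). IAA5 and IAA32 were higher in als3-1 than in sog1-7 at 1.5 mM with the block (2.06 and 0.59, adjusted p = 0.0174 and 0.045), IAA5 also with DESeq2 (adjusted p = 0.0269). IAA18 was lower in sog1-7 at 0 mM with DESeq2 (-0.51, adjusted p = 0.0301), and IAA8 was higher for the mean response without the low-rRNA libraries (0.17, adjusted p = 0.0405). IAA2 is described beside IAA7. IAA9 and IAA8 are the 2 most abundant. IAA9 had 243, 309 and 296 CPM in sog1-7 and 319.9, 333 and 316 CPM in als3-1 at 0 mM, against 321, 354 and 339 CPM in wild type. At 1.5 mM IAA9 had 229, 270.0 and 280.2 CPM in sog1-7 and 242, 323 and 314 CPM in als3-1, against 319, 309.8 and 289.9 CPM in wild type. All sog1-7 libraries lay below the wild type range of their concentration, and those of als3-1 overlapped it at both. For sog1-7 the change was -0.26 ± 0.13, adjusted p = 0.245 at 0 mM (edgeR), not called. IAA8 had 83.1, 101 and 117 CPM in sog1-7 and 116, 109.7 and 112 CPM in als3-1 at 0 mM, against 107, 119.6 and 118 CPM in wild type. At 1.5 mM IAA8 had 82.8, 113 and 114 CPM in sog1-7 and 102, 135 and 135 CPM in als3-1, against 129.5, 124 and 136 CPM in wild type. At 0 mM the 3 genotypes overlapped, and at 1.5 mM als3-1 overlapped wild type while sog1-7 lay below it.

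**Figure D5:**
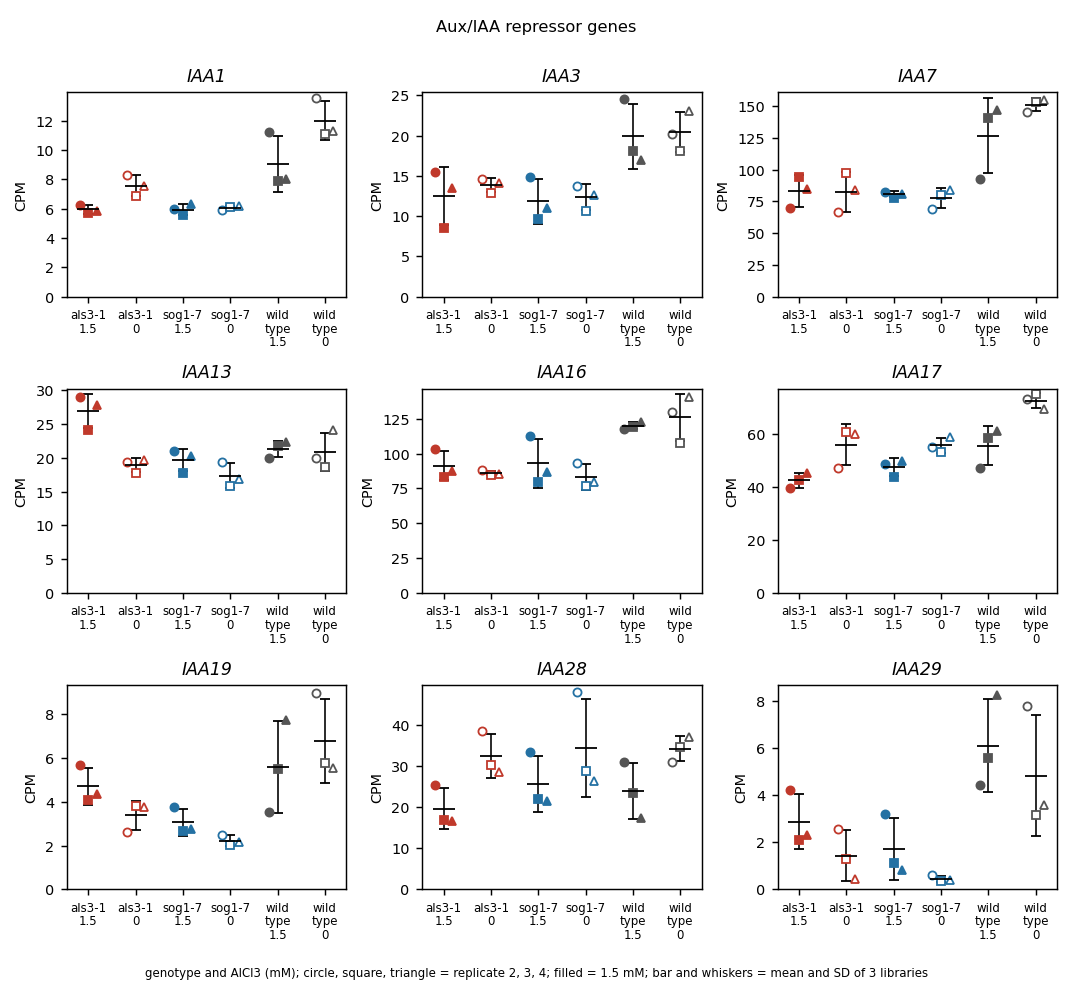
CPM of 9 Aux/IAA genes called in at least 1 comparison, in each of the 18 libraries (points), with the mean and SD of each group of 3 (bars). IAA1 and IAA7 are higher in wild type at 0 mM than in als3-1 and sog1-7, IAA29 is at 0.362 to 0.604 CPM in untreated sog1-7, and IAA13 is highest in als3-1 at 1.5 mM.

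Members with and without the shown letters were also counted. Of 15 tested members with TGTCTC or TGTCGG upstream, 2 rose and none fell with aluminium in als3-1 (median log2 change 0.14), and of 24 without, 1 rose and 2 fell (median -0.16). For sog1-7 against wild type at 0 mM, 4 of 15 with the letters were lower (26.7%) and 6 of 24 without (25%). Of the 21 tested Aux/IAA genes with the degron codons 7 were lower in that comparison, and of the 6 without them none was, with medians of -0.43 and -0.15. Over all genes 4.92% were called lower there. The 6 without the codons had low mean levels, from 0.415 FPKM (IAA30) to 2.97 FPKM (IAA20), so none of 6 cannot be read as a difference. These counts were not tested against each other.

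The other auxin genes were counted from lists, by edgeR over all 18 libraries without a block. Their calls were not followed through the other settings or the left-out fits. Over all genes 10.8% were called for aluminium in als3-1, 1.19% in sog1-7, 1.88% in wild type and 13.6% for the mean response. None of the 6 TIR1/AFB receptor genes was called for an aluminium response, and the only call was AFB3, lower in sog1-7 than in wild type at 0 mM (-0.62 ± 0.18, adjusted p = 0.0407, edgeR). Of 15 ARF genes ARF1 rose in als3-1 (0.33 ± 0.09, adjusted p = 0.0192), with 92.2 ± 2.92 CPM at 1.5 mM and 73.2 ± 4.06 CPM at 0 mM (SD, n = 3 each). Of 15 tested transport genes, the root tip efflux carrier gene PIN2 fell in als3-1 to 24.5 ± 0.948 CPM at 1.5 mM, against 50.9 ± 3.61 CPM at 0 mM (-1.05 ± 0.16, adjusted p = 0.000411). Its response was also more negative in als3-1 than in sog1-7 (-0.99 ± 0.22, adjusted p = 0.037). The influx carrier gene AUX1 fell (-0.41 ± 0.12, adjusted p = 0.0387) and the efflux carrier gene PIN7 rose (0.55 ± 0.16, adjusted p = 0.033) in als3-1. PIN7 rose to 172 CPM from 117 CPM at 0 mM, where it was lower than in wild type (184 CPM, -0.65 ± 0.16, adjusted p = 0.0416, edgeR). PIN7 was also lower than in wild type in sog1-7 at 0 mM (124 CPM, -0.56 ± 0.16, adjusted p = 0.0315, edgeR). None of the 5 tested other TAA and YUC genes, the 6 tested genes of auxin oxidation and conjugate hydrolysis, or the 4 other GH3 genes was called for an aluminium response. Between genotypes, GH3.9 (-1.87 ± 0.41, adjusted p = 0.00975) and GH3.10 (-1.12 ± 0.23, adjusted p = 0.00597) were lower in sog1-7 than in wild type at 0 mM (edgeR, 10.2% of all genes called). At 1.5 mM GH3.10 (-0.93), ARF18 (-1.43) and ILL6 (-0.64) were called lower in sog1-7 than in wild type (7.40% of all genes called). ARF18 (1.36), ARF5 (0.61) and ILL6 (0.59) were also called higher in als3-1 than in sog1-7 there (6.69%).

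Among 13 LBD and SAUR genes, which respond to auxin, LBD29, a factor of lateral root initiation, was called in als3-1, in sog1-7 and for the mean response (1.81 ± 0.22, adjusted p = 3.81e-05, edgeR). It had 1.70 ± 0.176 CPM in als3-1 at 1.5 mM, against 0.373 ± 0.184 CPM at 0 mM (2.14 ± 0.38, adjusted p = 0.00173). In sog1-7 it had 1.19 ± 0.102 CPM at 1.5 mM, against 0.325 ± 0.156 CPM at 0 mM (1.90 ± 0.39, adjusted p = 0.0189). In wild type the change of LBD29 was 1.40 ± 0.37 (adjusted p = 0.077), not called, and no difference of its response between genotypes was called. SAUR22 also rose in als3-1 (1.29 ± 0.31, adjusted p = 0.0126). At 0 mM SAUR19, SAUR20, SAUR21 and SAUR22 were lower in als3-1 and these 4 and SAUR24 were lower in sog1-7 than in wild type, by 1.27 to 2.76 log2 units in sog1-7. Over all genes 1.46% were called lower in als3-1 and 4.92% in sog1-7 there. At 1.5 mM the same SAUR genes were lower in sog1-7 (-1.95 to -1.12), where 3.65% of all genes were called lower. In als3-1 SAUR20 was lower at 1.5 mM (-1.28), where 3.03% of all genes were called lower. The SAUR19 to SAUR24 genes are near-identical tandem copies, and how reads with several matches were counted is not given in the sources used here, so their values are uncertain.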

How the data were processed

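RNA sequencing of 18 seedling libraries was analysed. Per the submitters' processing notes, the authors used FastQC 0.11.7, STAR 2.7.3a, featureCounts 2.0.0, Cufflinks 2.2.1 and DESeq2 1.36.0 with TAIR10. The deposited counts are whole reads per gene, and the deposited FPKM values are per gene length and library, per the file headers. The kit was directional, per the labels, and no source used here gives the strand setting or the rule for reads with several matches. The reference TAIR10.1 gave the same start and end for 32519 of 32538 genes (99.94%) and for all 42 members.

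Counts were tested with edgeR 4.0.16 (R 4.3.3): TMM scaling, filterByExpr with a minimum count of 10, and a robust quasi-likelihood fit of 6 group means over 18 libraries. Contrasts were aluminium within each genotype, its mean and its differences, and genotypes at each concentration. Alternatives were RLE scaling, DESeq2 1.42.0, no filter, a minimum count of 50, a replicate block, fits of the compared groups only, fits without the low-rRNA libraries, each library left out, and limma 3.58.1 on log2 FPKM with pseudocounts of 1 and 0.1. Library pairs within a group differed by far more than sampling noise (lowest chi-square per degree of freedom 16.96).

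Same-numbered libraries deviated together (correlation of deviations from group means 0.204 to 0.851) in every compared pair of groups except sog1-7 and wild type at 0 mM (-0.095 to 0.258). The labels name no shared batch, and this reading by comparison was made after the blocked fits had been run. Blocked values are therefore printed beside the results they change, except for sog1-7 against wild type at 0 mM. There edgeR with the block also called GH3.3 (-1.23, adjusted p = 0.0155), GH3.5 (-0.53, adjusted p = 0.00184) and IAA2 (-0.83, adjusted p = 0.00277) lower. IAA14 (-0.72, adjusted p = 0.00449) and IAA18 (-0.51, adjusted p = 0.0444) were called lower there as well.

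Levels at or below 3 counts are at the limit of detection, and this floor covers counting error only. Degron codons were searched in coding sequence, since no protein table was used here, and motifs in the 250 bases before each gene start (Python 3.11.15). Values are named for every member called in any comparison and for the most abundant of each role, and of the other lists for genes called in an aluminium response. GH3.5, GH3.17, IAA2, IAA5, IAA12, IAA14, IAA18, IAA27, IAA32, AFB3, GH3.9, GH3.10, ARF5, ARF18, ILL6 and the SAUR genes other than SAUR22 were chosen after their values were seen. The members and lists were chosen with earlier results of these data known, and 4 list genes that the reference does not name were dropped.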

Additional observations from a re-analysis of the deposited data

Results flagged for a closer look

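A pair of responses differed between genotypes by the test of the difference itself (edgeR, adjusted over all genes). For GH3.2 the aluminium response in als3-1 minus that in wild type was 1.27 ± 0.22, adjusted p = 0.0182, from a log2 change of 1.03 in als3-1 and -0.24 in wild type. For YUC3 the response in als3-1 minus that in sog1-7 was -1.59 ± 0.31, adjusted p = 0.0177, from -1.05 in als3-1 and 0.54 in sog1-7. Both differences ended without the low-rRNA libraries (adjusted p = 0.0528 for GH3.2 and 0.201 for YUC3), with values of 1.31 and -1.40. The part of tissue makeup in them was not tested.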

How the results depend on the processing

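Counts of members called are given by setting. Calls over all genes stand beside them only for DESeq2 and the replicate block, so the other counts describe the setting and not the members. With DESeq2 8 were called for als3-1 against wild type at 0 mM (4 with edgeR), where 449 of all 21650 genes were higher and 707 lower. For aluminium in sog1-7 DESeq2 called 1 member (0 with edgeR), where 335 of all genes were higher and 207 lower. Fitting only the compared groups gave 3 for aluminium in als3-1 (5 over all groups), 0 in wild type (1), 0 for als3-1 against wild type at 0 mM (4) and 1 at 1.5 mM (7), 1 for sog1-7 against wild type at 1.5 mM (5), and 0 for both differences of response (1 each). Without the low-rRNA libraries 9 were called for sog1-7 against wild type at 1.5 mM and 0 for both differences. With limma on log2 FPKM, at pseudocounts of 1 and of 0.1, 0 were called for aluminium in wild type and for both differences, 1 for als3-1 against wild type at 0 mM, 2 at 1.5 mM, and 2 for sog1-7 against wild type at 1.5 mM. At a pseudocount of 1, 6 were called for the mean response and 6 for sog1-7 against wild type at 0 mM. The FPKM scale moved the median of all genes by up to 0.222 log2 units. No value changed sign past the threshold. Of the 47 calls 2 ended with RLE scaling and 6 without the filter. The causes were not tested.

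The labels do not say what the replicate numbers share. All 18 libraries correlated best on average with their own number (median 0.316 for same-numbered libraries, -0.1475 for other pairs). With a replicate block the counts were 9 for aluminium in als3-1 (18.9% of all genes called), 1 in sog1-7 (2.65%) and 2 in wild type (3.71%). At 1.5 mM they were 6 for als3-1 against sog1-7 (14.5%), 15 for als3-1 against wild type (11.6%) and 11 for sog1-7 against wild type (16.7%). For als3-1 against wild type at 0 mM the count was 11 (7.37%). They were 15 for sog1-7 against wild type at 0 mM (10 without), where 19.0% of all genes were called with the block. For the mean response the count was 11 (10 without), where 21.8% were. The counts were 1 for als3-1 minus wild type (0.697% of all genes), 1 for als3-1 minus sog1-7 (1.90%) and 0 for sog1-7 minus wild type (0.0185%). No call of the 47 ended.

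Leaving out 1 library at a time gave 3 to 6 calls for aluminium in als3-1, 0 to 0 in sog1-7 and 0 to 1 in wild type, and 6 to 11 for the mean response. It gave 0 to 1 for each difference of als3-1 from another genotype and 0 to 0 for sog1-7 minus wild type. It gave 2 to 3 for als3-1 against sog1-7 and 1 to 3 for als3-1 and 2 to 7 for sog1-7 against wild type at 1.5 mM, and 0 to 2 for als3-1 and 6 to 9 for sog1-7 at 0 mM. Members near or under 1 CPM, such as IAA5, IAA29 in sog1-7, IAA33 and YUC7 in treated wild type, rest on few reads.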
